A study of Rattus norvegicus with 8 samples.

Results

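The MHC class II genes were followed in the hypothalamus of 4 female and 4 male rats. They were taken by gene name from the non-control spots of the arrays: RT1-Ba, RT1-Bb, RT1-Da, RT1-Db1, RT1-DMa, RT1-DMb, Cd74 and Ciita. These 8 genes had 10 probes, each spotted once, among 30367 probes and 19204 named genes on the array. All animals were Sprague Dawley rats of 3 to 4 months, kept singly under 14 h of light and 10 h of dark with free food and water. The females were in estrus, and the labels name no treatment or genetic change in either group. Each of the 4 arrays, 2-colour Agilent designs, held total hypothalamic RNA of 1 female and 1 male, and animals are called here by sex and array, so that female 1 and male 1 shared array 1. Females 1 and 3 and males 2 and 4 were labelled with Cy3, and the other 4 animals with Cy5. The labels name each sample separately by sex and number, with no litter or dissection batch. The p-values of the main fit measure the spread of the 4 within-array ratios of female over male around terms for sex and dye. They do not measure the spread between single animals.

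Class II molecules are pairs of an alpha and a beta chain that show peptides from ingested protein to helper T cells. In the rat, RT1-Ba and RT1-Bb encode the chains of the RT1-B molecule, and RT1-Da and RT1-Db1 those of RT1-D. Cd74, the invariant chain, guides new class II molecules to endosomes and fills their groove, the DM pair (RT1-DMa, RT1-DMb) exchanges its last fragment for peptide, and Ciita is the transactivator that switches the whole set on. In healthy brain these genes are known mainly from perivascular, meningeal and choroid plexus macrophages and dendritic cells, and at low levels from microglia. The RT1 complex is highly polymorphic, and Sprague Dawley is an outbred stock, so animals can carry different alleles. No RT1 type is given in the sources used here, and alleles were not measured.

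The results turn on the pairs of probes that read RT1-Bb and RT1-Db1, so these are shown 5′ to 3′, all in lower case. The upstream probe of RT1-Bb starts at transcript base 761 (rn4, chromosome 20, 4732187 to 4732246, minus strand) and the downstream one at base 1199 (4730533 to 4730583, of which 51 bases are placed on the genome). The upstream probe of RT1-Db1 starts at base 729 (4672665 to 4672724, minus strand) and its downstream probe at base 1185 (4671516 to 4671575). Of the 3 reading frames, 2 were free of stop codons in the upstream RT1-Bb probe and 1 in the upstream RT1-Db1 probe, against 0 in either downstream probe, of which the first 30 of 60 bases are printed.
RT1-Bb upstream, A_64_P043911: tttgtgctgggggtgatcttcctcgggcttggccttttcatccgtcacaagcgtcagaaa
RT1-Bb downstream, A_44_P552452: cagctgtgacagttgtgaaataccctagct
RT1-Db1 upstream, A_64_P130578: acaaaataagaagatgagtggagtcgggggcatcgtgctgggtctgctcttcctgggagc
RT1-Db1 downstream, A_64_P134927: ttcaagcagaagaaataccattcatgcata

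The RefSeq table (GRCr8) held promoters of 6 of the 8 genes. They were searched on both strands for TAGCAAC, the core of the X box bound by the RFX complex. The other motif was GATTGG, the inverted CCAAT of the Y box bound by NF-Y. Whether either motif bears on the levels given below was not tested. No match of one motif overlapped a match of the other. Only exact matches were counted, so a gene without a match may still hold a variant of the motif. In the 250 bases before the start site, TAGCAAC was found in RT1-Da at -84, RT1-Db1 at -114 and Cd74 at -72. GATTGG was found in RT1-Ba at -44, RT1-Bb at -62, RT1-Da at -50, RT1-DMa at -65 and, on opposite strands, in RT1-Db1 at -81 and -55. Of all 33469 promoters, 2.88% held the X core, 13.3% the Y box and 0.442% both, as RT1-Da and RT1-Db1 did. Bases -140 to -36 of the 5 genes on chromosome 20 are shown with matches in capitals; a match is a description of letters and not a bound site.
RT1-Ba, chr20:4576917-4577021, plus strand: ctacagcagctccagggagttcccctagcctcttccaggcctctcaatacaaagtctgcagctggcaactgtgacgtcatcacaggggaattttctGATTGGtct
RT1-Bb, chr20:4604154-4604258, minus strand: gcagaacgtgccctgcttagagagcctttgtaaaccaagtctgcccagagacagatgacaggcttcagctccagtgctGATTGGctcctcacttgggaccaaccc
RT1-Da, chr20:4515275-4515379, plus strand: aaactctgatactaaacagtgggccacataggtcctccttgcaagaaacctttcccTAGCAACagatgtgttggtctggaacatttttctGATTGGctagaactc
RT1-Db1, chr20:4560198-4560302, minus strand: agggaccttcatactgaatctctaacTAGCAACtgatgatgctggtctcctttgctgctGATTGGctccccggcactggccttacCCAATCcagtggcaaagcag
RT1-DMa, chr20:4712371-4712475, minus strand: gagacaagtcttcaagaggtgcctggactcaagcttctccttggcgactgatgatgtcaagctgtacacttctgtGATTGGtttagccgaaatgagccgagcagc

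Of the 10 class II probes, 8 were kept for testing, and all 8 were flagged well above background by the scanner software in all 8 animals. For a probe to be kept, every sample of 1 sex or of both had to carry that flag, and 21995 probes of 14603 genes could be fitted. Signals are given as mean spot intensity above the local background, in the scanner's units, and can be compared only within a dye, since the median spot gave 492.5 to 519 units in Cy3 and 146 to 269.5 in Cy5. Within Cy5 the median was lower in females 2 and 4 (146 and 159.5) than in males 1 and 3 (269.5 and 228), a difference that the normalization removes and the signals keep. None of the 42877 non-control spots was saturated. Male 2 stood apart from the other animals in markers of brain region, as given with its class II values below.

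RT1-Ba was not detected, although it encodes the partner of RT1-Bb. Its probe (A_44_P128248, chromosome 20, 4700973 to 4701032, rn4) was well above background in 0 of 8 animals, with signals from -18.9 to 0.939 units. Ciita was at the edge of detection: its probe (A_64_P010569, chromosome 10, 5087176 to 5087235) was flagged in 2 females and 3 males, with signals from -6.58 to 9.98 units. The flag did not follow the Ciita signal, as male 2 was flagged at -6.58 units and male 3 was not at 9.98. A level of either gene below these signals was not detectable on these arrays, and neither was tested for sex. Neither gene had another probe in the set to compare. At RT1-Bb, below, the 2 probes of the gene disagreed in females 1 and 4, for a cause that was not tested.

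The upstream probe of RT1-Bb, the beta chain of RT1-B, was measured in every animal. In Cy3 it gave 1180 units in female 1, 1260 in female 3, 229 in male 2 and 643 in male 4. In Cy5 it gave 402 in female 2, 418 in female 4, 901 in male 1 and 658 in male 3. The females were the brighter pair in Cy3 and the dimmer pair in Cy5, an order between animals of different arrays. After normalization and subtraction of the mean of the dye, the log2 deviations were 0.67 and 0.58 in females 1 and 3 and 0.23 and 0.09 in males 1 and 3, against -0.23 and -0.10 in females 2 and 4 and -1.07 and -0.19 in males 2 and 4. Both animals of arrays 1 and 3 were thus above the mean of their dye and both animals of arrays 2 and 4 below it.

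The downstream RT1-Bb probe was nearly dark in 2 females. In Cy3 it read 8.85 units in female 1 against 1410 in female 3, 208 in male 2 and 639 in male 4. In Cy5 it read 16.6 units in female 4 against 344 in female 2, 959 in male 1 and 1800 in male 3. Females 1 and 4 were not low at the upstream probe of the same transcript, where female 1 was the highest of the 8 animals once the mean of its dye was subtracted.

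The upstream probe of RT1-Db1, the beta chain of RT1-D, gave 681 units in female 1, 1290 in female 3, 297 in male 2 and 636 in male 4 in Cy3, and 366 in female 2, 263 in female 4, 685 in male 1 and 778 in male 3 in Cy5. At its downstream probe the Cy3 signals were 246, 1070, 151 and 518 and the Cy5 signals 306, 100, 628 and 815 in the same order of animals. After normalization and subtraction of the mean of the dye, female 4 was the lowest animal at the downstream probe, and male 2 at the upstream one.

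**Figure D1:**
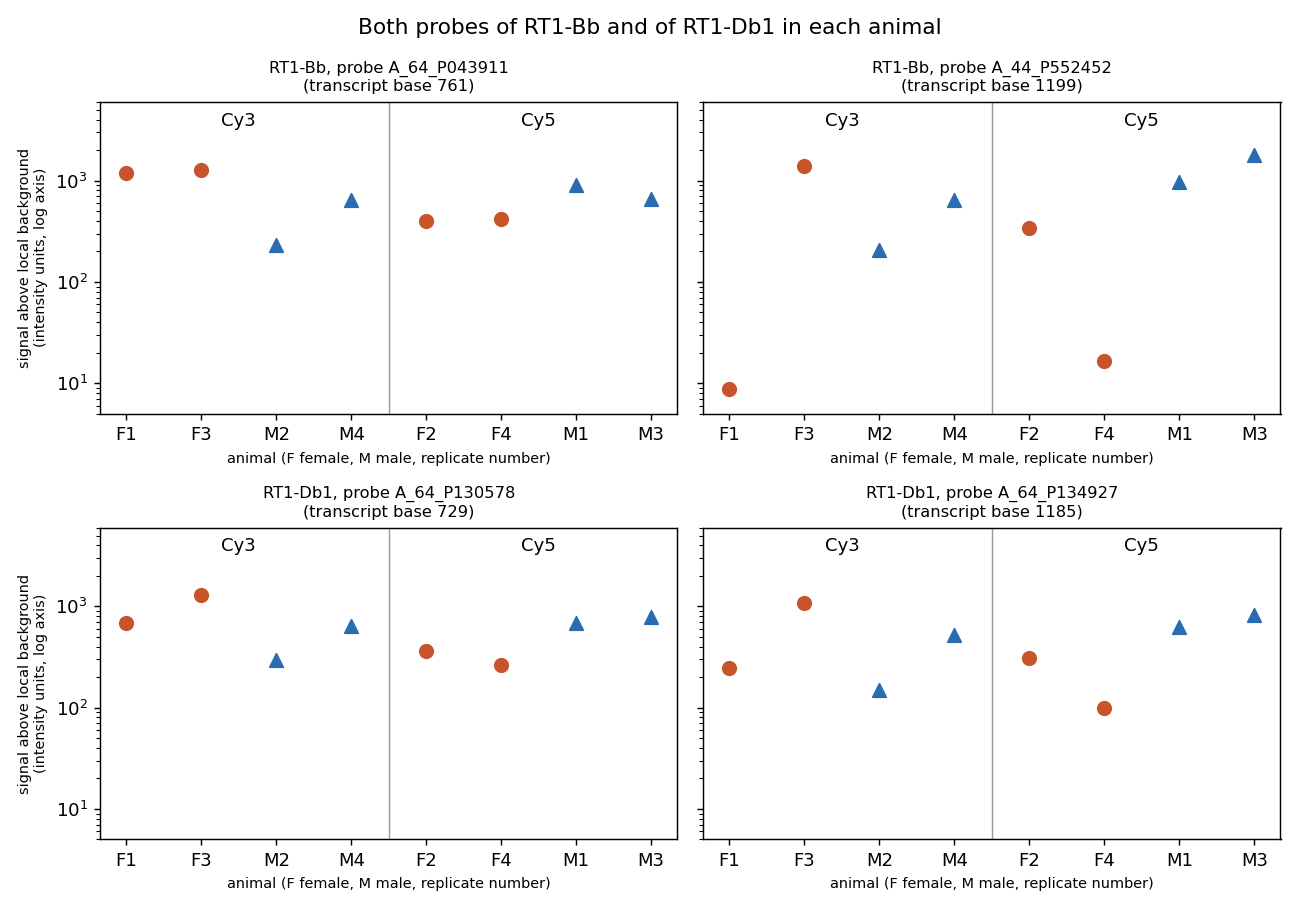
Signal above local background (log axis, scanner intensity units) of both probes of RT1-Bb (top) and RT1-Db1 (bottom) in each animal, females as circles and males as triangles, with Cy3 samples left of the line and Cy5 samples right. At the downstream RT1-Bb probe females 1 and 4 lie at 8.85 and 16.6 units while the other 6 animals lie between 208 and 1800.

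For comparison between animals, the log2 level after background correction, loess and scaling between arrays was set against the mean of the 4 samples of its dye. The offset of 50 units added in the background correction compresses differences of dim spots, so the gap at the downstream RT1-Bb probe is understated on this scale. On it, the downstream RT1-Bb probe minus the upstream one was -2.53 in female 1 and -2.26 in female 4, and from 0.15 to 1.71 in the other 6 animals. For RT1-Db1 the same difference was -0.63 in female 1 and -0.68 in female 4, and from 0.06 to 0.40 in the others. On this centred scale the difference was below 0 in the same 2 females for both beta chain genes and above 0 in the other 6 animals. Centring raises the other animals of a dye where 1 of them is very low, and the signals of different probes are not set against each other. Over the 8 animals the probes of RT1-Bb correlated at r = 0.07 and those of RT1-Db1 at r = 0.86, as descriptions over values that share arrays. The cause of this pattern was not tested.

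RT1-Da, the alpha chain of RT1-D, was read by 1 probe (A_44_P991532, chromosome 20, 4641104 to 4641163, plus strand). In Cy3 its signals were 1610 units in female 1, 2290 in female 3, 497 in male 2 and 1120 in male 4, with both females above both males. In Cy5 they were 299 in female 2, 360 in female 4, 703 in male 1 and 801 in male 3, with both females below.

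The DM chains, which edit the peptide in the groove, varied less. RT1-DMa (A_64_P128478, chromosome 20, 4844372 to 4844431) gave 3930 units in female 1, 3370 in female 3, 6390 in male 2 and 3340 in male 4 in Cy3, and 1760 in female 2, 1320 in female 4, 2640 in male 1 and 1790 in male 3 in Cy5. RT1-DMb (A_64_P062110, 4830313 to 4830372) gave 3020, 3010, 2140 and 2740 units in the same Cy3 order and 1190, 1350, 1860 and 1590 in the same Cy5 order. After normalization and subtraction of the mean of the dye, male 2 was the highest animal for RT1-DMa and the lowest for RT1-DMb.

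Cd74 was read by a probe on chromosome 18 (A_44_P549494, 56765468 to 56765527). Its Cy3 signals were 6540 units in female 1, 9120 in female 3, 2030 in male 2 and 4370 in male 4. Its Cy5 signals were 3230 in female 2, 2510 in female 4, 5710 in male 1 and 4840 in male 3. As for RT1-Da and the upstream RT1-Bb probe, both females were above both males in Cy3 and below them in Cy5, and after normalization the animals of arrays 1 and 3 were above and those of arrays 2 and 4 below the mean of their dye. A further probe, described on the array as the rat invariant chain but listed without the name Cd74 (TC588776, A_64_P071088), gave 4270 units in female 1, 5520 in female 3, 1270 in male 2 and 2710 in male 4 in Cy3, and 699 in female 2, 761 in female 4, 1510 in male 1 and 1490 in male 3 in Cy5. Its order of animals was that of Cd74 in Cy3, while in Cy5 females 2 and 4 stood in the opposite order.

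**Figure D2:**
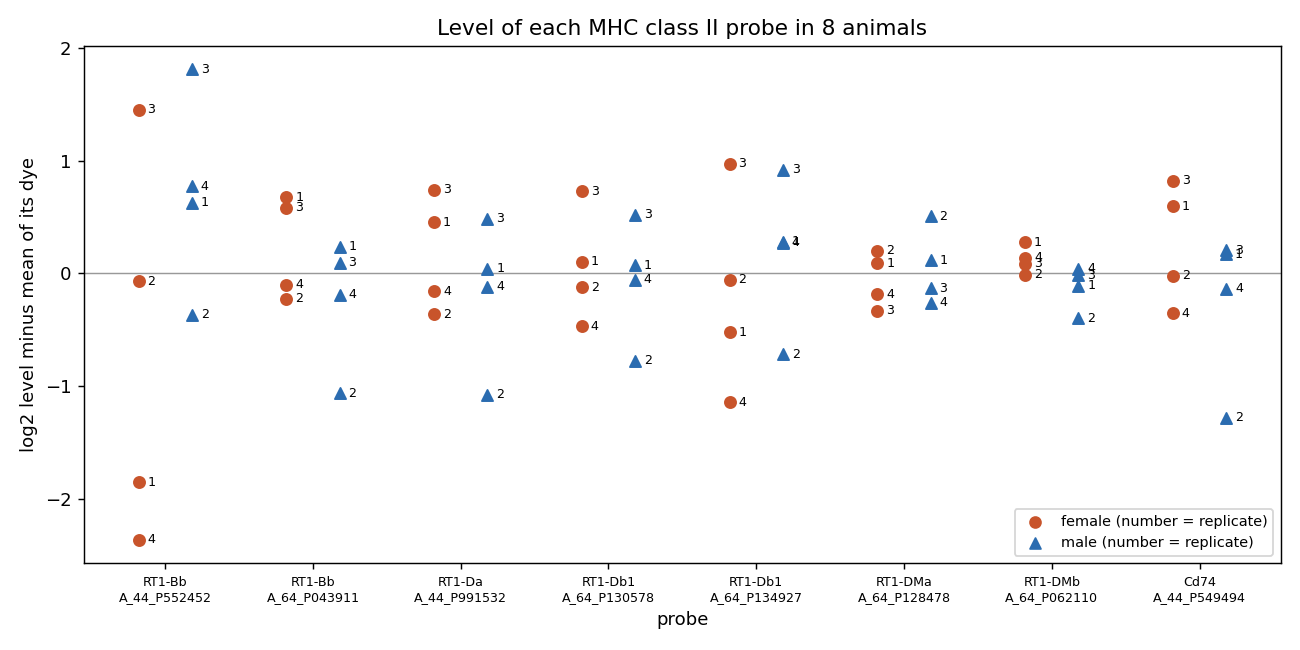
Log2 level of each of the 8 kept class II probes in each animal after subtraction of the mean of its dye; circles are females, triangles males, and the digit is the array shared by a female and a male. The sexes overlap at all 8 probes, male 2 is lowest at 5 of them, and females 1 and 4 are lowest at the downstream RT1-Bb probe A_44_P552452. No share of all probes is given beside these counts, so they are not read as particular to class II.

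After subtraction of the dye mean the females and males overlapped at all 8 probes. The share of all probes with such an overlap is not given, so it is not read as particular to class II. Cd74 was 0.26 ± 0.54 in females and -0.26 ± 0.70 in males (mean ± SD of the log2 deviation, n = 4 each). RT1-Da was 0.17 ± 0.52 in females and -0.17 ± 0.66 in males, and the upstream RT1-Bb probe 0.23 ± 0.46 and -0.23 ± 0.58. These group values leave out that each female shared an array with a male. Within arrays 1 to 4, the female minus the male deviation was 0.44, 0.84, 0.49 and 0.09 at the upstream RT1-Bb probe and 0.39, 0.38, 0.10 and 0.10 for RT1-DMb, above 0 on all 4 arrays. Of the 8 class II probes these 2 had the female above the male on all 4 arrays and 0 had her below, against 18.6% and 10.9% of all probes. For Cd74 the differences were 0.42, 1.26, 0.62 and -0.22, and for RT1-Da 0.41, 0.72, 0.26 and -0.04, with array 4 the only one below 0 in both.

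The comparison of females with males asked whether class II expression differs by sex in this tissue. With limma, 0 of 8 class II probes passed an adjusted p of 0.05 (Benjamini-Hochberg over all 21995 probes), as did 0% of all probes, whose lowest adjusted p was 0.555. At an unadjusted p under 0.05, 1 of the 8 class II probes was higher in females and 0 in males, against 4.98% and 3.52% of all probes. Read by gene at the brightest probe, 1 of 6 genes was higher in females and 0 in males at that p, against 5.01% and 3.51% of all genes. That gene was RT1-Bb at its upstream probe, while its downstream probe had a ratio of the opposite sign. The count was 0 with RT1-Bb read at its downstream probe, a reading added after the values were seen. With the mean of a gene's probes it was also 0.

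The probe with the smallest p was the upstream one of RT1-Bb. Its log2 ratio of female over male was -0.28, 1.56, -0.23 and 0.81 on arrays 1 to 4, and limma fitted 0.46 ± 0.14 (SE, as in the values that follow; unadjusted p = 0.0291, adjusted p = 0.555). It was above 0 on both arrays with the female in Cy5 and below 0 on both with the female in Cy3, and the differences above 0 on all 4 arrays, given before, are these ratios less the dye's part.

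At the downstream RT1-Bb probe the ratios were -3.61, 1.43, -1.49 and -2.003, and the fit was -1.42 ± 0.70 (limma, adjusted p = 0.555), opposite in sign to the other probe of the gene. The largest negative ratios were those of arrays 1 and 4, which held the 2 females with the dark spot. Left-out arrays moved this estimate to -0.89 without array 1, -2.28 without array 2, -1.95 without array 3 and -0.56 without array 4, with the adjusted p at 0.51 or above in each. Because the gene's direction depended on the probe, no direction is given for RT1-Bb.

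RT1-Da had ratios of 0.45, 0.68, 0.30 and -0.08, above 0 on 3 of 4 arrays, and a fit of 0.34 ± 0.15 (limma, adjusted p = 0.555). The estimate was 0.15 without array 2. RT1-Db1 was 0.12 ± 0.19 at the upstream probe (adjusted p = 0.797) and -0.38 ± 0.39 at the downstream probe (adjusted p = 0.695), again with opposite signs, and its arrays ranged from -0.61 to 1.29 and from -1.60 to 1.45.

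RT1-DMb had ratios of 0.00, 0.77, -0.28 and 0.48 and a fit of 0.24 ± 0.09 (limma, adjusted p = 0.555). RT1-DMa, with ratios of -0.12, -0.22, -0.29 and 0.17, was fitted at -0.11 ± 0.09 (adjusted p = 0.634), below 0 on 3 of 4 arrays. The partners of the DM pair therefore had estimates of opposite sign, neither past the threshold. Cd74 had ratios of -0.47, 2.16, -0.28 and 0.68 and a fit of 0.52 ± 0.26 (adjusted p = 0.555), and array 2, with male 2, gave the largest ratio. The unnamed invariant chain probe gave 0.47 ± 0.19 (adjusted p = 0.555).

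**Figure D3:**
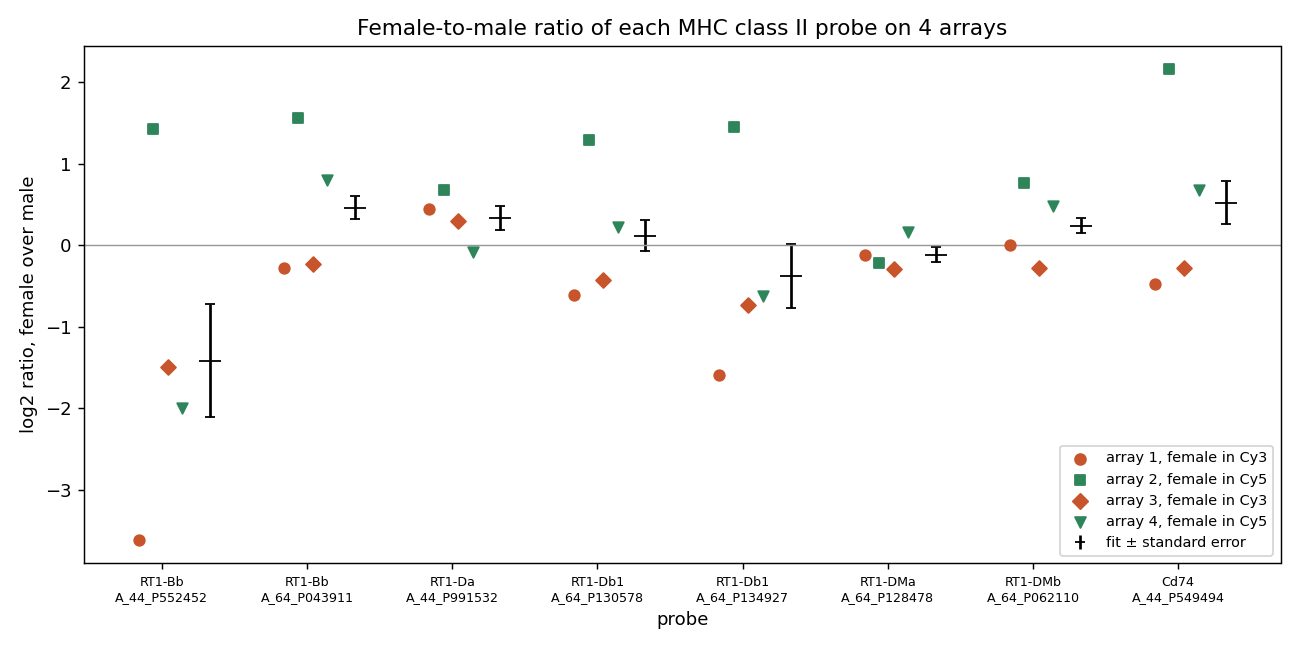
Log2 ratio of female over male for the 8 kept class II probes on each of the 4 arrays, with the limma fit and its standard error at the right of each group. Arrays 2 and 4 (green, female in Cy5) lie above arrays 1 and 3 (orange, female in Cy3) for the upstream RT1-Bb probe A_64_P043911, both RT1-Db1 probes, RT1-DMb and Cd74. Array 2 is the highest array at 7 of the 8 probes.

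A dye term in the same fit gave 1 class II probe past an adjusted p of 0.05, the upstream RT1-Bb probe, with a log2 dye coefficient of 0.72 (limma, adjusted p = 0.0494), against 12.7% of all probes. For Cd74 the coefficient was 0.90 (adjusted p = 0.103) and for the downstream RT1-Bb probe 1.13 (adjusted p = 0.33). Each dye orientation rested on 2 arrays.

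By gene, with RT1-Bb and RT1-Db1 read at their upstream probes, 5 of 6 class II genes had a ratio above 0, with a median log2 ratio of 0.29, beside 56.2% of all genes above 0 and a median of 0.02. With RT1-Bb read at its downstream probe, a reading added after the values were seen, 4 of 6 genes were above 0 and the median was 0.18. With each gene read at the mean of its probes, 3 of 6 were above 0 and the median was 0.06, beside 0.02 over all genes. Without array 2 the count was 4 of 6 and the median 0.15, with Cd74 at 0.15 and the upstream RT1-Db1 probe reversed at -0.15. Without array 4 the median was 0.46, and 3 of 8 class II probes passed the adjusted threshold (the upstream RT1-Bb probe at 0.65, RT1-Da at 0.53 and Cd74 at 0.89, all higher in females), against 6.78% of all probes in that fit of 3 arrays. The downstream RT1-Db1 probe reversed to 0.14 there.

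Differences between animals were wide at the class II probes. The SD over the 8 animals of the log2 deviation was 1.49 at the downstream RT1-Bb probe, above 99.9% of kept probes, and 0.76 at the downstream RT1-Db1 probe, above 98.8%. It was 0.64 for Cd74, 0.58 for RT1-Da, 0.55 for the upstream RT1-Bb probe and 0.49 for the upstream RT1-Db1 probe, each above at least 95.4% of kept probes. RT1-DMa (0.28) and RT1-DMb (0.20) stood lower, above 82.8% and 67.3%. From the lowest to the highest animal, Cd74 spanned 4.29-fold, RT1-Da 3.53-fold and RT1-DMb 1.60-fold. The median SD was 0.56 over the 8 class II probes and 0.15 over all kept probes; without array 2 these were 0.36 and 0.10.

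Cd74, RT1-Da and the upstream beta chain probes varied together across animals. Over the 8 animals Cd74 correlated at r = 0.97 with the upstream RT1-Bb probe, 0.94 with RT1-Da and 0.89 with the upstream RT1-Db1 probe, and without array 2, over 6 animals, at 0.91, 0.92 and 0.81. RT1-DMb correlated with Cd74 at 0.75 over 8 animals and at -0.07 without array 2, and RT1-DMa at -0.62 and 0.28, so the DM values rested on that array. The downstream RT1-Bb probe correlated with Cd74 at 0.27 and with the downstream RT1-Db1 probe at 0.93. These are descriptions, as the points share arrays and dye means. Genes outside the set, named next, correlated with Cd74 at 0.985 to 0.988, above every class II probe. High correlation with Cd74 was therefore not particular to class II genes.

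Among 14597 other named genes, those most like Cd74 over the 8 animals were Sntn (r = 0.988), Spag1 (0.986), Upf3b (0.985), Fat1 (0.985) and Tmem214 (0.985). Sntn and Spag1 are known from motile cilia, Upf3b acts in nonsense-mediated decay and Fat1 is a large cadherin. In all 5, as in Cd74, male 2 was the lowest animal, at -0.69 for Sntn and -0.22 for Tmem214 on the log2 scale.

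Male 2 had the lowest median of the class II genes, but was not the lowest animal at every probe. Its deviation was -1.28 for Cd74, -1.08 for RT1-Da, -1.07 for the upstream RT1-Bb probe, -0.78 for the upstream RT1-Db1 probe and -0.40 for RT1-DMb, and 0.50 for RT1-DMa. At the downstream probes it was -0.37 for RT1-Bb and -0.72 for RT1-Db1, where female 4 was lowest. The median over the 6 genes was -0.92 in male 2 and between -0.17 and 0.66 in the other 7 animals. In the same animal the median of 17 hypothalamic markers was -1.82, against -0.04 to 0.69 in the others, and that of 10 cortical, hippocampal and striatal markers was 1.72, against -0.61 to 0.37. All 17 hypothalamic markers were detected, 15 of them in all 8 animals. The part of tissue makeup in the class II values was not tested. In bulk RNA, fewer class II cells and less class II RNA per cell cannot be told apart.

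**Figure D4:**
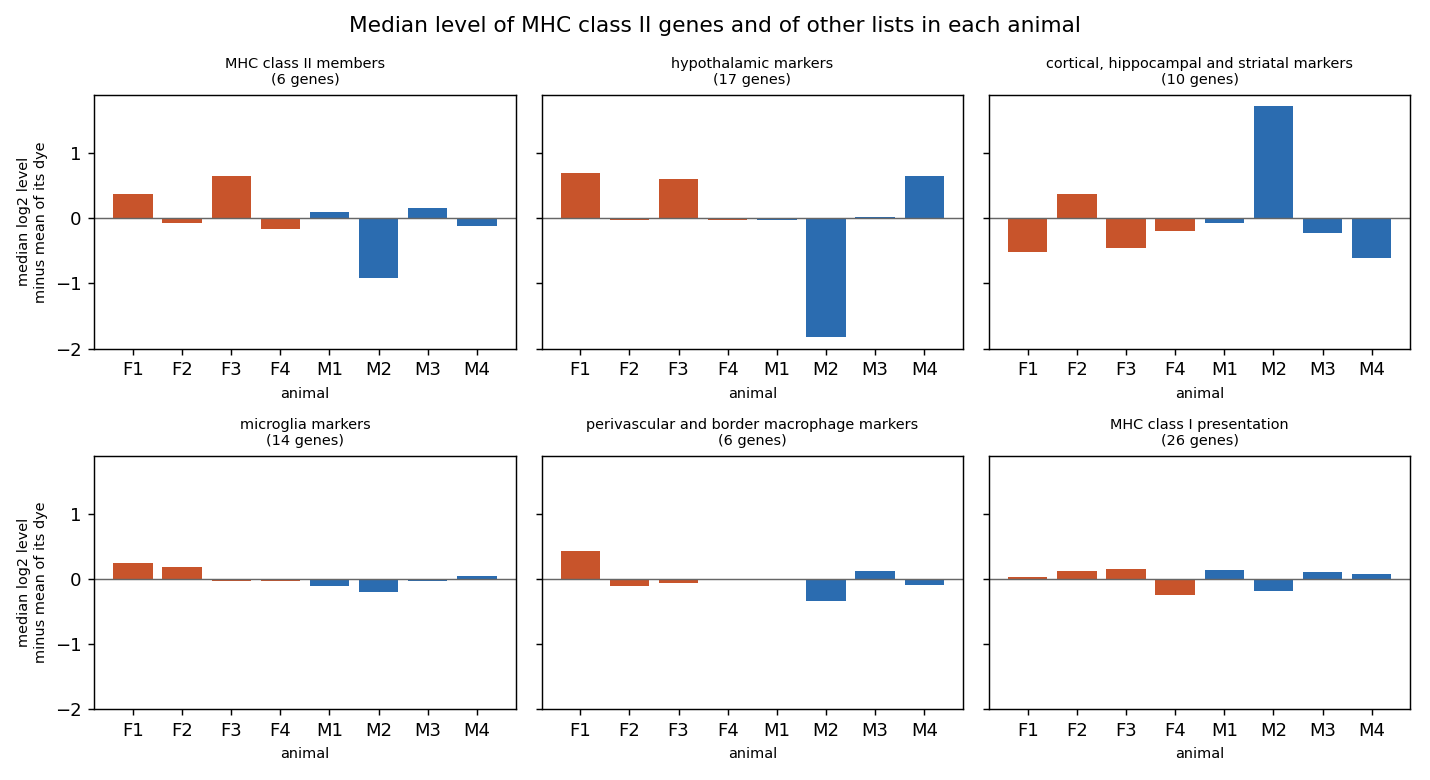
Median log2 level, after subtraction of the dye mean, of the class II genes and 5 other lists in each animal (F female, M male). Male 2 is lowest for the class II genes (-0.92) and the hypothalamic markers (-1.82) and highest for the cortical, hippocampal and striatal markers (1.72), while microglia and macrophage markers differ less between animals.

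Markers of cells that can carry class II were set beside these values. Of 15 microglia markers, 14 were detected in all 8 animals and Siglech in 0; their median ran from -0.20 in male 2 to 0.25 in female 1. For perivascular and border macrophages, of which Cd209a and Mrc1 were detected in 0 animals, the median of 6 genes ran from -0.33 in male 2 to 0.42 in female 1. Dendritic cell markers (5 genes, Xcr1 in 0 animals) lay between -0.11 and 0.11. Monocyte and neutrophil markers (4 genes, Ccr2 in 0 animals) ran from -0.45 in male 2 to 0.26 in female 3. Of the B cell markers, Blk, Fcer2 and Ms4a1 were detected in 0 animals, and for choroid plexus and meninges 13 genes ran from -0.50 in male 2 to 0.59 in female 1. None of these lists reached the -0.92 of the class II genes in male 2; their part in the class II result was not tested.

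The rest of the pathway was read for sex in the same fit, by gene at its brightest probe. In each list named here and in the next paragraph 0 genes passed the adjusted threshold, and counts in brackets are those at an unadjusted p under 0.05, to be read against 5.01% of all genes higher and 3.51% lower in females. Counts above 0 are to be read against 56.2% of all genes. Other class II and peptide loading genes had 6 of 9 above 0 and a median of 0.04 (0 higher, 0 lower), with Ifi30, the lysosomal thiol reductase, at 0.25 ± 0.11 and Ctsd, cathepsin D, at 0.18 ± 0.10. RT1-DOa and RT1-Ha were detected in 0 animals, and RT1-DOb, which restrains DM, was at -0.11 ± 0.07. Class II transcription machinery and interferon-gamma signalling had 6 of 15 above 0 and a median of -0.03 (2 higher, 1 lower). Its smallest p-values were those of Irf1, an interferon-induced factor, at 0.43 ± 0.10, and Rfxank, a subunit of the RFX complex, at 0.26 ± 0.06; Ifng was detected in 0 animals. Class I presentation had 12 of 26 above 0 and a median of -0.05 (4 higher, 1 lower), with RT1-N3 at 0.49 ± 0.08 and Psmb8, an immunoproteasome subunit, at 0.34 ± 0.06. Interferon response genes had 15 of 17 above 0 and a median of 0.23 (0 higher, 0 lower), with Ifitm3 at 0.48 ± 0.18 and Mx2 at 0.24 ± 0.09. Costimulation genes had 5 of 5 above 0 and a median of 0.16 (1 higher, 0 lower), with Icam1 at 0.36 ± 0.11 and Cd40 at 0.16 ± 0.10.

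Among cell markers, microglia had 8 of 14 above 0 with a median of 0.13 (0 higher, 1 lower), P2ry12 at -0.33 ± 0.11 and Csf1r at -0.35 ± 0.11, the latter from 3 arrays, as its spot on array 1 was an outlier. Perivascular macrophages had 6 of 6 above 0 with a median of 0.13 (0 and 0), Clec10a at 0.34 ± 0.17 and Cd163 at 0.18 ± 0.11. Dendritic cells had 4 of 5 (median 0.10; 0 and 0), with Batf3 at 0.11 and Ccr7 at -0.10. T and NK cells had 6 of 7 (0.01; 1 and 0), with Zap70 at 0.44 ± 0.09 and Cd4 at -0.10, and monocytes and neutrophils 4 of 4 (0.17; 2 and 0), with Lyz2 at 0.34 and Cd14 at 0.24. Red cell markers had 5 of 6 above 0 (median 0.17; 0 and 0), with Slc4a1 at -0.17 and Hbb at 0.34 ± 0.52. Choroid plexus and meningeal markers, from sites known to hold class II cells, had 7 of 13 above 0 (median 0.00; 1 and 1), and their 2 named genes lay far apart. Ogn, a matrix protein of the meninges, was at 1.06 ± 0.19, with -0.76, 3.33, -0.59 and 2.27 on arrays 1 to 4. Ttr, the thyroid hormone carrier made by choroid plexus, was at -1.79 ± 0.53, with 1.26, -2.69, -1.31 and -4.42; the part of either tissue in the class II values was not tested. Hypothalamic markers had 16 of 17 above 0 and a median of 0.71 (3 and 0), with the neuropeptide genes Kiss1 at 0.48 ± 0.09 and Gnrh1 at 0.99 ± 0.20. Cortical, hippocampal and striatal markers had 2 of 10 above 0 and a median of -0.45 (0 and 2), with Lhx2 at -1.06 and Neurod6 at -0.96. The regional markers thus had the medians farthest from 0 of the 16 lists, and male 2 was their most extreme animal.

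The downstream RT1-Bb pattern was then looked for in the rest of the array, a search made after its values were seen. Of the 20 probes that correlated best with it over the 8 animals, 13 were on chromosome 20, which held 2.7% of the 21822 probes compared, 12 were RT1 probes and 1 was a class II gene of the set, the downstream RT1-Db1 probe. The class I probes RT1-A1 (A_64_P032913) and RT1-CE16 read -0.89 and -0.68 in female 1 and -1.41 and -1.58 in female 4, as log2 deviations. RT1-CE4 read -0.73 and -0.79 in these animals. Of 38 RT1 probes, 15 had females 1 and 4 as their lowest pair of animals, against 1.85% of all probes. RT1-N1 ran the other way, at 0.63 in female 1 and 0.80 in female 4 (r = -0.926). The RT1-DMa and RT1-DMb probes, also on chromosome 20, correlated with the downstream RT1-Bb probe at -0.27 and -0.31. RNA of near-identical RT1 genes can bind the same probe, so single class I values are uncertain.

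**Figure D5:**
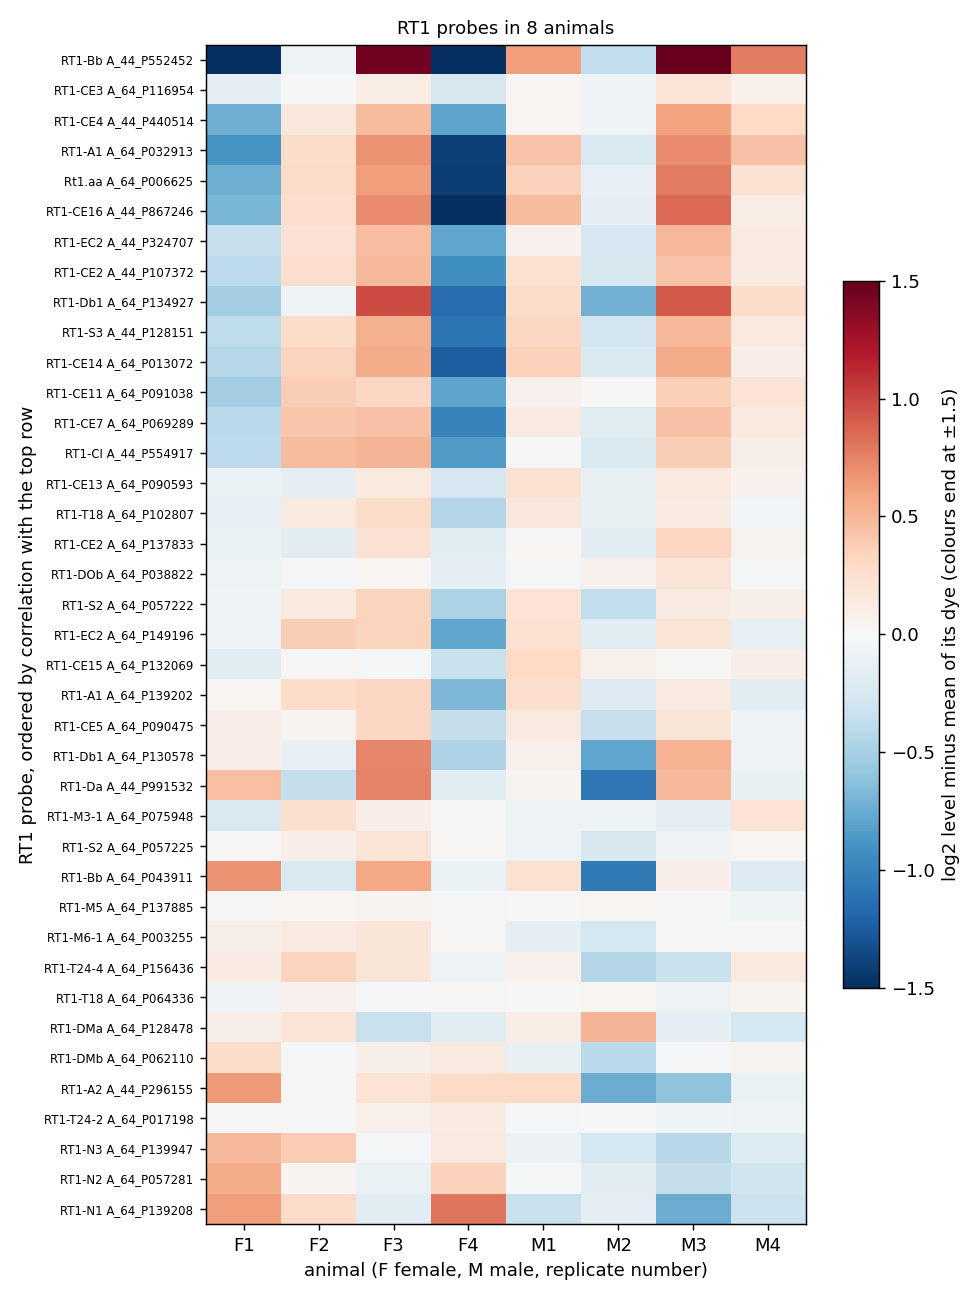
Log2 level after subtraction of the dye mean (colour, ending at ±1.5) of the downstream RT1-Bb probe (top row) and 38 other RT1 probes in the 8 animals, ordered by correlation with the top row. Females 1 and 4 are the lowest pair in 15 of the 38 rows, among them RT1-CE4 and RT1-A1 A_64_P032913, and are high in RT1-N1 at the bottom.

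Another class II probe outside the set, LOC688090 (A_64_P024665, described as similar to the RT1.B-1 beta chain), gave 0.34 ± 0.26 for female over male (limma, adjusted p = 0.616). It read 0.54 in female 1 and -0.56 in female 4 as log2 deviations and so did not share the low value of both females. Male 2, at -0.72, was again its lowest animal.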

How the data were processed

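The submitters' processing notes name Agilent Feature Extraction 10.7.3.1 for the 4 arrays. Per the file headers, spot and local background signals are intensity values as scanned, and the scanner's log ratio is a log10 of red over green. The authors' table is on the log2 scale: each column, centred on a median of 0, matched log2 of the background-subtracted median signal within 0.01. Probe positions are on rn4, per the file headers.

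Here mean signals were corrected with normexp (offset 50) and loess within arrays in limma 3.58.1 (R 4.3.3), without outlier spots (931 to 1096 per array). Levels per animal were also scaled between arrays (Aquantile). Ratios of female over male entered a fit with sex and dye terms, in which the shared array is the block and the source of the pairing; 22004 probes passed the filter. Deviations of the animals sharing an array correlated across probes at 0.57, 0.65, 0.41 and -0.05. A gene was read at its brightest probe; names came from accessions (17328 probes) or the array file (5371). Named genes were all members, the 2 smallest p-values per list and the 5 genes most like Cd74; RT1-DOb, other class II probes and class I probes like RT1-Bb were added after their values were seen. The members and lists were chosen with earlier results of these data known. The number of arrays limits precision. Sequences came from the array files and RefSeq. Steps were tested on simulated data. Alternatives were no dye term, separate channels, other background, normalization, filter, outlier and prior settings, the scanner's ratio, the authors' table, the mean of a gene's probes, and each array left out. The sex ratios of the B cell list are not reported here.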

Additional observations from a re-analysis of the deposited data

How the results depend on the processing

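The count of 0 class II probes and genes called for sex held under every alternative run except without replicate 4, where both were 3 (range 0 to 3), all probes called numbered 1479, and the upstream RT1-Bb probe (0.65), RT1-Da (0.53) and Cd74 (0.89) passed. Counts at an unadjusted p under 0.05, which were 1 by probe and 1 by gene, were 0 by both with no dye term, with no background correction, with the scanner's ratio and with the authors' table, which fitted 7 probes, and 2 by both with no filter on dim probes; leaving out a replicate gave 0 to 5. By gene the count was also 0 with the mean of a gene's probes and with RT1-Bb read at its other probe, an alternative chosen after seeing the data. Without the replicate block, in a separate-channel fit that drops the pairing by array, both counts were 0 and the class II probes with a dye effect 0. That dye count, 1 in the report, was 0 with no background correction, median centring, the scanner's ratio, the authors' table or no filter, and 0 to 6 without a replicate. All probes at that p, 1870, numbered 638 with no dye term, 1142 with median centring and 401 to 6471 without a replicate. RT1-Db1 reversed at its upstream probe without replicate 2 (-0.15, range -0.15 to 0.39) and at its downstream probe without replicate 4 (0.14, range -0.90 to 0.14). The median ratio, 0.29, was 0.06 with the mean of a gene's probes and 0.18 with no filter or with the other RT1-Bb probe. Without a replicate it was 0.15 to 0.46. The spread was 0.36 to 0.65 without a replicate, a set chosen after seeing the data, and 0.70 with the authors' table. Both the median ratio and the spread moved by less than the SD over members. That SD is wide, so this does not show them to be stable. The median of 0.06, beside 0.02 over all genes in the same reading, also fell within it. The causes of these changes were not tested.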
